A study of Rattus norvegicus with 16 samples.

Results

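Pex5l, Cacng5, Fxyd7, Gjd2 and Kcna3 are 5 genes of membrane excitability that the authors placed on their marker lists for 1 hippocampal subfield each: Pex5l for CA1, Cacng5 for CA2, Fxyd7 and Gjd2 for CA3, and Kcna3 for the dentate gyrus (DG). They are 5 of the 32883 genes in the count table, and each passed the filter of more than 10 reads summed over all libraries, as 17174 genes did. They were chosen by name and Ensembl identifier for encoding a channel, a channel partner or a pump regulator: Pex5l is ENSRNOG00000011211, Cacng5 is ENSRNOG00000003288, Fxyd7 is ENSRNOG00000021067, Gjd2 is ENSRNOG00000008337 and Kcna3 is ENSRNOG00000062002. A gene entered an authors' list when its log2 fold change in the marked subfield was above 2 against each of the other subfields, so the contrasts with the marked subfield are given below as a description with no test. The 3 remaining contrasts of each gene, 15 in all, were not used by that choice and were tested.

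The samples came from 4 untreated male Wistar rats of 3 months. Neuronal cell layers, granular in DG and pyramidal in the CA subfields, were cut from brain sections by laser capture microdissection, a method that frees a chosen area of tissue with a laser under a microscope. Total RNA of each subfield was sequenced, which gave 16 libraries, 4 per subfield. No genotype or treatment differed between the groups, and the groups are defined by the layer that was cut. A captured layer holds mainly the cell bodies of its principal neurons, together with the glia, interneurons and vessels between them.

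The products of these genes act on the membrane in different ways. Pex5l encodes TRIP8b, an auxiliary subunit of HCN channels, which open on hyperpolarization and carry the Ih current. TRIP8b controls where HCN channels are placed in the neuron and how they respond to cyclic AMP. Cacng5 encodes TARP gamma-5, a transmembrane protein that associates with AMPA receptors, the receptors of fast excitatory transmission. Fxyd7 encodes a small single-pass protein that binds the sodium pump (Na,K-ATPase) and alters its affinity for ions. Gjd2 encodes connexin 36, the main connexin of neurons, whose channels join cells in electrical synapses. Kcna3 encodes Kv1.3, a pore-forming subunit of voltage-gated potassium channels of the Shaker family, also known from lymphocytes and microglia.

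RefSeq sequence of the 250 bases before the annotated start (GRCr8 build) was given for Cacng5, Gjd2 and Kcna3, and not for Pex5l and Fxyd7. The sequences differ in their content of CG dinucleotides, which are in capitals, and any relation of this content to the marked subfield was not tested. They are written 5′ to 3′ on the strand of the gene, and lie at chr10:93336668-93336917 on the minus strand for Cacng5, at chr3:121229368-121229617 on the minus strand for Gjd2 and at chr2:197320074-197320323 on the plus strand for Kcna3.
Cacng5: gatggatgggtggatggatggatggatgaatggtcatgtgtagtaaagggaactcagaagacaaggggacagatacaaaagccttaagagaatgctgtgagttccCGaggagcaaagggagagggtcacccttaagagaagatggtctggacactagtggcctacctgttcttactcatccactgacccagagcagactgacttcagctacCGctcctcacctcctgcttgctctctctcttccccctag
Gjd2: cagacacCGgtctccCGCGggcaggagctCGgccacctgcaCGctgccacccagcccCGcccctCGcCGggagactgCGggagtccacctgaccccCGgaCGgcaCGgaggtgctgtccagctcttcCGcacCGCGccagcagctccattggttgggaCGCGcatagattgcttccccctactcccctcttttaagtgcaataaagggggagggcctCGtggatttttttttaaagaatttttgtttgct
Kcna3: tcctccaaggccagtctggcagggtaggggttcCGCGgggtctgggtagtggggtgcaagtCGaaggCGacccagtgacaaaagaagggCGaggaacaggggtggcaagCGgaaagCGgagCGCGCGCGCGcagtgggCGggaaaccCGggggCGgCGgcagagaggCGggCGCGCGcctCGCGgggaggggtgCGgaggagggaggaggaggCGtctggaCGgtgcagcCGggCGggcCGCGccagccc

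The upstream sequence of Cacng5, the CA2 gene, held 2 CG dinucleotides and had a GC content of 51.2%, equal to the median of 51.2% over all 33465 promoters in the RefSeq table. The sequence of Gjd2, the CA3 gene, held 18 CG dinucleotides with a GC content of 62%. That of Kcna3, the DG gene, held 29 with a GC content of 73.6%. The median promoter held 5, and 81.9%, 20.1% and 6.04% of all promoters held at least as many as Cacng5, Gjd2 and Kcna3. The observed count over that computed from base composition was 0.123 for Cacng5, 0.758 for Gjd2 and 0.966 for Kcna3, beside a median of 0.383. A search of both strands for the E box CANNTG found 1 match in Cacng5, 2 in Gjd2 and 0 in Kcna3, and 65.5% of all promoters held one. The GC box GGGCGG had 0, 1 and 3 matches in the same order (30.5% of promoters), and CCAAT had 1 match in Gjd2 and 0 in both others (34% of promoters). TATAAA (12.9% of promoters) and the cyclic AMP response element TGACGTCA (1.59%) had 0 matches in each sequence. These are matches of letters, and binding or methylation was not measured.

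Library totals ranged from 3216512 to 11933279 reads. CA2 replicates 2 and 4 differed by no more than sampling noise: chi-square over its degrees of freedom was 1 over genes (chi-square test, p = 0.456). It was 1.04 for DG replicates 2 and 4, whose chi-square test over 13766 genes gave p = 0.00176, just past sampling noise. The other 22 pairs of libraries within a subfield gave 2.8 to 43.5. Each of these 2 pairs may be 1 library deposited under different numbers, and was summed and counted as 1 sample, named replicate 2+4, which leaves 14 samples: 4 of CA1, 3 of CA2, 4 of CA3 and 3 of DG. The labels could not be checked with independent markers, because an identifier carried a symbol only for genes on the authors' lists, which these libraries chose. Of known markers on those lists, Wfs1 had 610 to 776 CPM in CA1 and 8.65 to 134 CPM elsewhere, Amigo2 had 96.7 to 153 CPM in CA2 and 3.11 to 22.1 CPM elsewhere, and Prox1 had 283 to 395 CPM in DG and 2.27 to 19.1 CPM elsewhere. CPM are counts scaled by library total and TMM factor, and they are compared between samples of a gene and not between genes, whose transcript lengths differ. In captured tissue fewer expressing cells and less RNA per cell cannot be told apart. Markers of interneurons, astrocytes, oligodendrocytes, microglia, endothelium and CA3 neurons were not analysed here, because their identifiers could not be paired with symbols. Of 5 T cell markers, Cd3e was paired, and it is on the authors' CA1 list: it had 19.2, 13.4, 6.95 and 8.35 CPM in CA1 replicates 1 to 4, and its means were 0.327 CPM in CA2, 0.625 in CA3 and 0.0399 in DG. It thus differs between CA1 and each other subfield. Its part in the CA1 contrasts below, which go in both directions, was not tested.

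**Figure D1:**
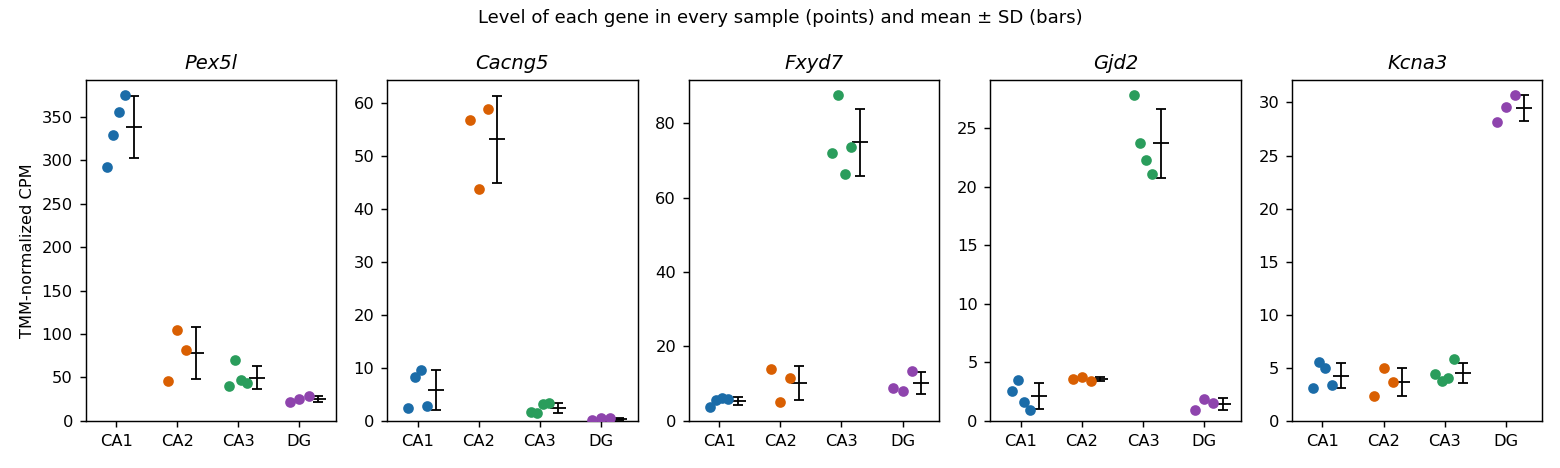
TMM-normalized CPM (linear axes from 0, 1 scale per gene) of the 5 genes in every sample, with the subfields along the horizontal axis; points are samples in order of replicate number, and the bars are the mean ± SD of 4 CA1, 3 CA2, 4 CA3 and 3 DG samples. In each panel the samples of the marked subfield lie above all others; the nearest approach is Pex5l, with 292 in the lowest CA1 sample and 105 in the highest CA2 sample.

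Pex5l, the HCN channel partner, was highest in CA1 and lowest in DG, with CA2 and CA3 between them. CA1 replicates 1 to 4 had 292, 329, 355 and 375 CPM. CA2 had 46 CPM in replicate 1, 105 in replicate 2+4 and 81.9 in replicate 3. CA3 replicates 1 to 4 had 39.8, 69.6, 46.9 and 43.3 CPM, and DG had 21.5, 24.7 and 29.1 CPM in replicates 1, 2+4 and 3. No sample of the other subfields reached CA1, and CA2 and CA3 overlapped, whereas each DG sample lay below each CA2 and CA3 sample. The means were 338 ± 35.9 CPM in CA1 (SD, n = 4), 77.7 ± 29.9 in CA2 (n = 3), 49.9 ± 13.5 in CA3 (n = 4) and 25.1 ± 3.82 in DG (n = 3), so CA1 held 68.9% of the sum of the subfield means. CA1 was 4.32-fold above CA2 (log2 fold change 2.11, SE 0.22), 6.73-fold above CA3 (2.75, SE 0.20) and 13.4-fold above DG (3.74, SE 0.24). The value against CA2 lies nearest to the limit of 2 among the 5 genes, and it was 1.87 without CA2 replicate 1.

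Among the subfields that Pex5l does not mark, the edgeR quasi-likelihood test called both contrasts with DG. Pex5l was 3.1-fold higher in CA2 than in DG (log2 fold change 1.63, SE 0.23, adjusted p = 1.02e-05), in a comparison where 35.4% of all genes tested were called. It was 1.99-fold higher in CA3 than in DG (0.99, SE 0.22, adjusted p = 0.00114), where 40.2% of genes were called. CA2vsCA3 gave a log2 fold change of 0.64 (SE 0.21, 95% interval 0.21 to 1.07) and an adjusted p of 0.066 with edgeR, and was not called. In that comparison 7.65% of genes were called. Its edgeR adjusted p was 0.00247 without CA2 replicate 1 (log2 fold change 0.88) and 0.0108 without CA3 replicate 2 (0.85), and 0.000268 with a replicate block over 16 libraries (0.71), while without CA2 replicate 2+4 the log2 fold change was 0.34 (edgeR adjusted p = 0.502).

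Pex5l moved with the other CA1 markers inside the subfields where it is low. The 33 other genes of the authors' CA1 list, which was picked on these samples, summed to 193 CPM in CA2 replicate 1, 410 in replicate 2+4 and 291 in replicate 3, in the same order as Pex5l. In CA3 they summed to 266 CPM in replicate 2, the sample with the highest Pex5l, and to 82.9, 99.3 and 84.4 CPM in replicates 1, 3 and 4. Wfs1, which is part of that sum, had 106 CPM in CA3 replicate 2 and 8.65 to 13.8 in the other CA3 samples. Cd3e had 1.9 CPM in CA3 replicate 2 and 0 to 0.494 CPM in the others. The CA1 samples summed to between 1639 and 1942 CPM for the same list. The part of CA1 tissue in these Pex5l levels was not tested.

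Cacng5, the AMPA receptor partner, was highest in CA2 and lowest in DG. CA2 had 56.9, 43.8 and 58.9 CPM in replicates 1, 2+4 and 3. CA1 replicates 1 to 4 had 2.37, 8.38, 9.62 and 2.78 CPM, CA3 replicates had 1.73, 1.55, 3.17 and 3.4 CPM, and DG replicates had 0.182, 0.584 and 0.479 CPM. Every CA2 sample was above every other sample, CA1 and CA3 overlapped, and the DG values rest on 1, 9 and 4 reads. The means were 53.2 ± 8.19 CPM in CA2 (SD, n = 3), 5.79 ± 3.75 in CA1 (n = 4), 2.46 ± 0.958 in CA3 (n = 4) and 0.415 ± 0.209 in DG (n = 3), and CA2 held 86% of their sum. CA2 was 8.6-fold above CA1 (log2 fold change 3.10, SE 0.30), 22.2-fold above CA3 (4.47, SE 0.33) and 109-fold above DG (6.77, SE 0.47, 95% interval 5.80 to 7.74).

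Each of the 3 contrasts of Cacng5 outside CA2 was called. Cacng5 was 12.7-fold higher in CA1 than in DG (log2 fold change 3.66, SE 0.53, edgeR adjusted p = 1.5e-05), where 29.4% of genes were called. CA3 exceeded DG 4.91-fold (2.30, SE 0.61, adjusted p = 0.00487 by edgeR), and the log2 fold change was 3.12 when all libraries were thinned to the lowest total. CA1 exceeded CA3 2.58-fold (1.37, SE 0.37, adjusted p = 0.00826 by edgeR), in a comparison that called 24.8% of genes. The CA1vsCA3 call was lost without either of 2 CA1 samples: its edgeR adjusted p was 0.0505 without replicate 2 and 0.0525 without replicate 3. In CA1 replicates 2 and 3 the 13 other genes of the authors' CA2 list summed to 68.8 and 58.3 CPM, against 18.8 in replicate 1 and 35.9 in replicate 4. The same genes summed to 301 to 395 CPM in CA2. In CA3 they summed to 40.3 to 58 CPM, within the range of the CA1 samples. Whether CA2 tissue entered the CA1 samples was not tested.

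Fxyd7, the sodium pump regulator, was highest in CA3 and lowest in CA1. CA3 replicates 1 to 4 had 71.9, 87.5, 66.3 and 73.7 CPM. CA1 had 3.82, 5.52, 6.03 and 5.88 CPM, CA2 had 13.9, 5.16 and 11.5 CPM in replicates 1, 2+4 and 3, and DG had 8.92, 7.92 and 13.4 CPM. CA3 lay apart from all others, each DG sample was above each CA1 sample, and CA2 overlapped with both. The means were 74.9 ± 8.99 CPM in CA3 (SD, n = 4), 10.2 ± 4.53 in CA2 (n = 3), 10.1 ± 2.92 in DG (n = 3) and 5.31 ± 1.02 in CA1 (n = 4), and CA3 held 74.5% of the sum. CA3 was 14.3-fold above CA1 (log2 fold change 3.84, SE 0.23) and 7.49-fold above both CA2 and DG (2.90 for each, SE 0.24).

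Outside CA3, Fxyd7 was 1.91-fold lower in CA1 than in CA2 (log2 fold change −0.94, SE 0.27, edgeR adjusted p = 0.022), where 14.3% of genes were called. It was also 1.91-fold lower in CA1 than in DG (−0.94, SE 0.27, edgeR adjusted p = 0.0111). CA2vsDG was not called (−0.00, edgeR adjusted p = 1). Its edgeR SE, which is derived from the fold change and the F statistic, is not reliable this near to 0. DESeq2 gave a log2 fold change of −0.02 with an SE of 0.28. The CA1vsCA2 call was lost without CA1 replicate 1 (edgeR adjusted p = 0.078), CA2 replicate 1 (0.163) or CA2 replicate 3 (0.121), and the CA1vsDG call without DG replicate 3 (0.0906). The 12 other genes of the authors' CA3 list summed to 25.3, 18.4 and 20.6 CPM in CA2 replicates 1, 2+4 and 3, the order of Fxyd7, and to 179 to 204 CPM in CA3. In DG, where the Fxyd7 mean was 10.1 CPM, they summed to 1.82 to 8.18 CPM. The order of Fxyd7 was not kept in DG or in CA1. Their part in the CA2 level was not tested.

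Gjd2, which encodes the neuronal connexin, was also highest in CA3. CA3 replicates 1 to 4 had 27.8, 23.7, 22.3 and 21.1 CPM. CA1 had 2.58, 3.5, 1.62 and 0.928 CPM, CA2 had 3.6, 3.71 and 3.4 CPM, and DG had 0.911, 1.88 and 1.56 CPM. The CA2 samples lay above each DG sample, while CA1 overlapped with both. The CA2 values rest on 23, 36 and 33 reads, and the libraries summed in replicate 2+4 had 3.32 and 4.01 CPM. With so few reads, the closeness of the CA2 values is not taken as a tightly set level. The means were 23.7 ± 2.92 CPM in CA3 (SD, n = 4), 3.57 ± 0.159 in CA2 (n = 3), 2.16 ± 1.12 in CA1 (n = 4) and 1.45 ± 0.495 in DG (n = 3), and CA3 held 76.8% of the sum. CA3 was 6.63-fold above CA2 (log2 fold change 2.73, SE 0.23), 9.85-fold above CA1 (3.30, SE 0.22) and 15-fold above DG (3.91, SE 0.26).

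Of the contrasts of Gjd2 outside CA3, CA2vsDG was called, with a 2.26-fold higher level in CA2 (log2 fold change 1.18, SE 0.31, edgeR adjusted p = 0.00534). CA1vsCA2 was not called (−0.57, 95% interval −1.15 to 0.01, edgeR adjusted p = 0.2). CA1vsDG was not called either (0.61, 95% interval −0.05 to 1.26, edgeR adjusted p = 0.164). Both intervals reach beyond a doubling or halving. Fxyd7 and Gjd2 thus share their highest subfield, and differ in the order below it as listed, with CA1 lowest for Fxyd7 and DG lowest for Gjd2. That difference between the genes was not tested. In CA1 the other CA3 list genes summed to between 7.73 CPM in replicate 4 and 12.2 in replicate 2, the samples with the lowest and highest Gjd2. CA1 replicate 4 held 3 Gjd2 reads and replicate 3 held 14, so the lowest place is uncertain.

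Kcna3, the potassium channel gene, was highest in DG and low in each pyramidal subfield. DG had 28.2, 29.6 and 30.7 CPM in replicates 1, 2+4 and 3. CA1 replicates 1 to 4 had 3.09, 5.52, 4.98 and 3.4 CPM, CA2 had 2.35, 4.95 and 3.71 CPM, and CA3 had 4.45, 3.8, 4.02 and 5.83 CPM. The 3 DG samples stood apart, and the 3 pyramidal subfields overlapped throughout. The means were 29.5 ± 1.22 CPM in DG (SD, n = 3), 4.53 ± 0.914 in CA3 (n = 4), 4.25 ± 1.19 in CA1 (n = 4) and 3.67 ± 1.3 in CA2 (n = 3), and DG held 70.3% of the sum. DG was 6.72-fold above CA1 (log2 fold change 2.75, SE 0.21), 7.81-fold above CA2 (2.96, SE 0.23) and 6.64-fold above CA3 (2.73, SE 0.20).

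None of the 3 pyramidal contrasts of Kcna3 was called by edgeR, and 0 of them had an unadjusted p under 0.05 or was called by DESeq2. The log2 fold change was 0.22 for CA1vsCA2 (95% interval −0.30 to 0.74, edgeR adjusted p = 0.648), −0.02 for CA1vsCA3 (−0.49 to 0.46, edgeR adjusted p = 0.968) and −0.23 for CA2vsCA3 (−0.75 to 0.28, edgeR adjusted p = 0.721). Without CA2 replicate 2+4 the log2 fold change was 0.51 for CA1vsCA2 and −0.52 for CA2vsCA3, and neither was called. CA3 replicate 4 had the highest Kcna3 outside DG, and the 225 other genes of the authors' DG list summed to 1666 CPM there, against 1108 to 1328 CPM in the other CA3 samples and 11563 to 12542 CPM in DG. The 3 granule neuron markers analysed, all part of that list, did not move alike. Prox1 had 19.1 CPM in that sample and 3.21 to 9.76 CPM in the other CA3 samples, C1ql2 had 8.1 CPM against 5.29 to 7.77 CPM, and Dsp had 1.46 CPM against 1.11 to 2.11 CPM. The part of granule cells in this value was not tested.

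**Figure D2:**
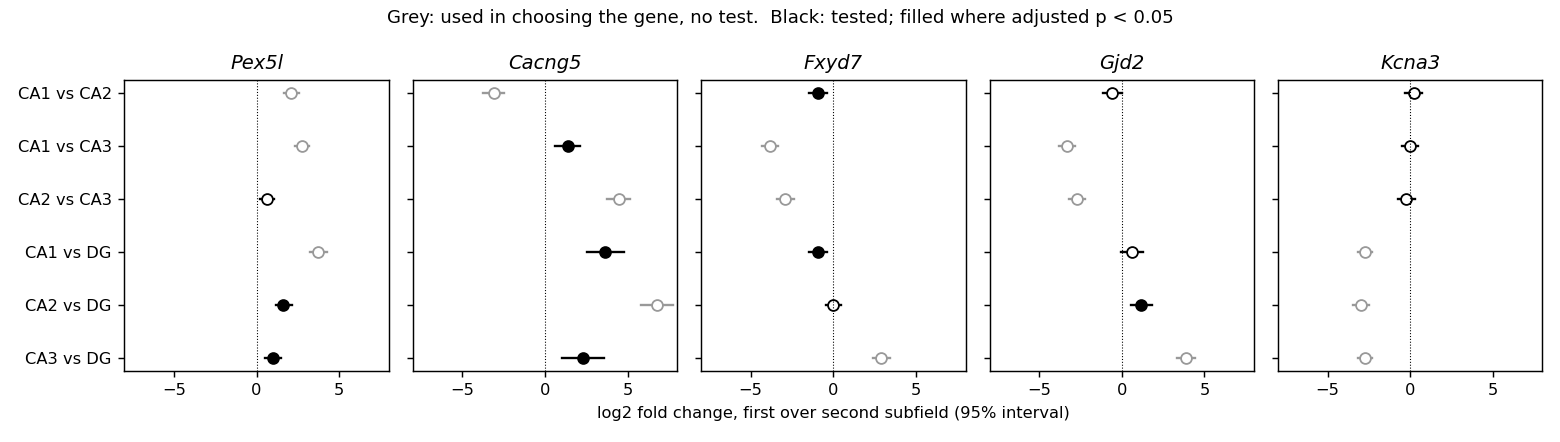
Log2 fold change of the first over the second subfield (horizontal axis) with its 95% interval from the edgeR fit, for the 6 comparisons (rows) of each gene; grey circles are contrasts used in choosing the gene and carry no test, black circles were tested and are filled where the adjusted p was under 0.05. Of the 15 tested contrasts 8 are filled, and the 3 of Kcna3 lie around 0. The interval drawn for Fxyd7 CA2vsDG is not reliable, because the fold change it is derived from is near 0.

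Across the 5 genes, 8 of the 15 tested contrasts were called. By comparison these were Fxyd7 of 3 genes tested in CA1vsCA2, Cacng5 of 2 in CA1vsCA3, 0 of 2 in CA2vsCA3, Cacng5 and Fxyd7 of 3 in CA1vsDG, Pex5l and Gjd2 of 3 in CA2vsDG, and both genes tested, Pex5l and Cacng5, in CA3vsDG. In CA2vsCA3, where edgeR called 0 of the 2 genes, 1 of them (Pex5l) had an unadjusted p under 0.05, and DESeq2 called 1. With 2 or 3 genes per comparison, these shares cannot be told from the background shares of genes called given above. The lowest sample of the marked subfield exceeded the highest sample of any other by 2.77-fold for Pex5l, 4.56-fold for Cacng5, 4.76-fold for Fxyd7, 5.68-fold for Gjd2 and 4.84-fold for Kcna3, which restates the choice of the genes.

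**Figure D3:**
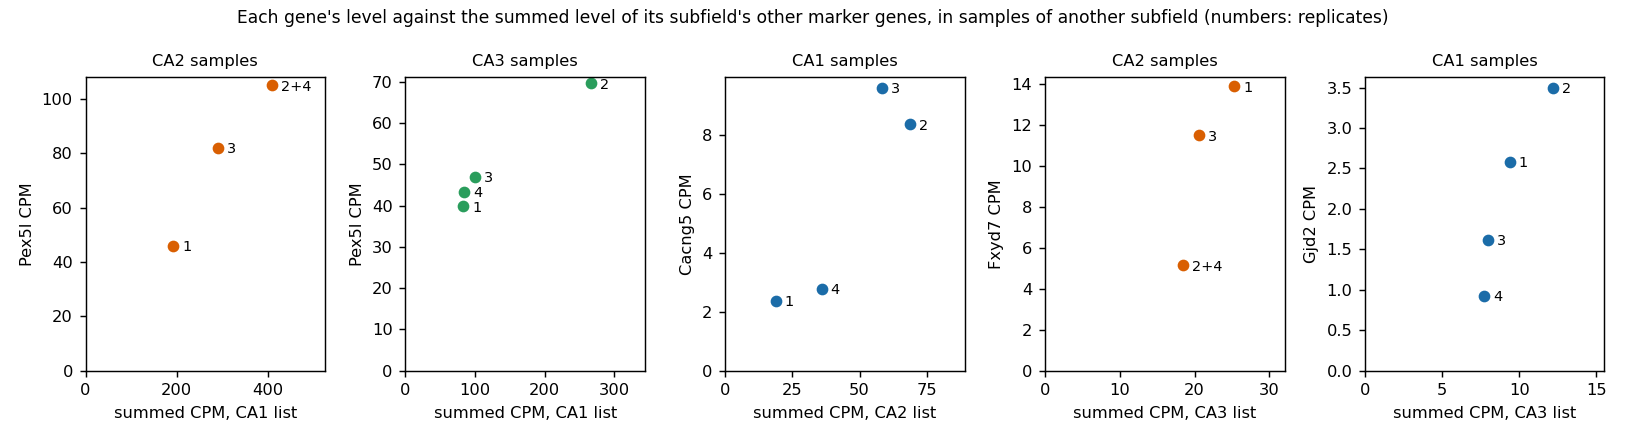
Level of a gene (vertical axis, CPM) against the summed level of the other genes on its authors' list (horizontal axis, CPM), in samples of a subfield it does not mark; numbers are replicates, axes start at 0, and panels show Pex5l in CA2 and CA3, Cacng5 in CA1, Fxyd7 in CA2 and Gjd2 in CA1. In the Pex5l, Fxyd7 and Gjd2 panels the samples have the same order on both axes, and in the Cacng5 panel replicates 2 and 3 are highest on both. The panels were picked from the 15 combinations of a gene and a subfield it does not mark, of which 7 kept the order.

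The ranking of samples by a gene and by the other genes on its list was compared in each of the 15 combinations of a gene and a subfield it does not mark. The order was the same in 7 of these, and the highest sample was the same in 9. Pex5l kept the order of its list in all 3 of its subfields, Gjd2 in CA1 and DG, Fxyd7 in CA2 and Kcna3 in CA2. The lowest Gjd2 samples of CA1 and DG held 3 and 5 reads, so their place in the order is uncertain. With 3 or 4 samples and lists picked on the same libraries, this comparison of orders is a description with no test.

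Among named genes with a mean of at least 5 CPM in a subfield, those most like each of the 5 were found by Pearson's r of log2 CPM over the 14 samples. These values share libraries and the 4 subfields, and only genes on the authors' lists carried a name, so r is given as a description with no p. Nearest to Pex5l were Gabrr2, a GABA-A rho receptor subunit, with r = 0.971, the cadherin Cdh6 (0.966) and Ndst4 (0.965), followed by Ldb2 (0.962) and Arhgap12 (0.961). Nearest to Cacng5 were AABR07001734.1 (0.977), the secreted Wnt modulator Sfrp2 (0.974), the GABA-A receptor subunit Gabra6 (0.938), Cyp1b1 (0.930) and Papln (0.925). Nearest to Fxyd7 were the transcription factor Bhlhe23 (0.939), the retinoic acid hydroxylase Cyp26b1 (0.931), Col8a2 (0.921), Vgll3 (0.892) and Gjd2 itself (0.885). Gjd2 was nearest to the orexin receptor Hcrtr2 (0.946), with Col8a2 (0.926), Bhlhe23 (0.912), Frem3 (0.908) and Cyp26b1 (0.901) next. Bhlhe23, Cyp26b1 and Col8a2 appear for both CA3 genes, but the CA3 list holds only 14 genes, so such an overlap was largely fixed beforehand. Among all 10994 genes compared, with or without a name, Bhlhe23 ranked 12 for Fxyd7 and 42 for Gjd2. Cyp26b1 ranked 17 and 61, and Col8a2 ranked 25 and 17, in the same order. Kcna3 was nearest to the contactin Cntn5 (0.982) and to Ryr1 (0.981), a calcium release channel, and then to Klhdc8b (0.978), Slc35f4 (0.977) and Zfp423 (0.975).

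Of 82 genes fixed as relatives of the 5 proteins, Kcna5, another Kv1 channel gene, could be paired with an identifier, and it is on the authors' DG list as Kcna3 is. The level of Kcna5 in DG was 3.32 ± 0.356 CPM (SD, n = 3), while its means in CA1, CA2 and CA3 were 0.222, 0.241 and 0.124 CPM on 6, 7 and 4 reads. HCN channels, AMPA receptor subunits, sodium pump subunits and other connexins, with which these gene products work, were not analysed here. On the RefSeq map of GRCr8, Kcna3 neighbours Kcna2 and Kcna10, Cacng5 neighbours Cacng4 and Cacng1, and Fxyd7 lies between Fxyd5 and Fxyd1. Pex5l and Gjd2 each overlap uncharacterized loci in that annotation, and the strand setting of the read counting was not given in the sources used here, so reads of overlapping genes could be shared.

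**Figure D4:**
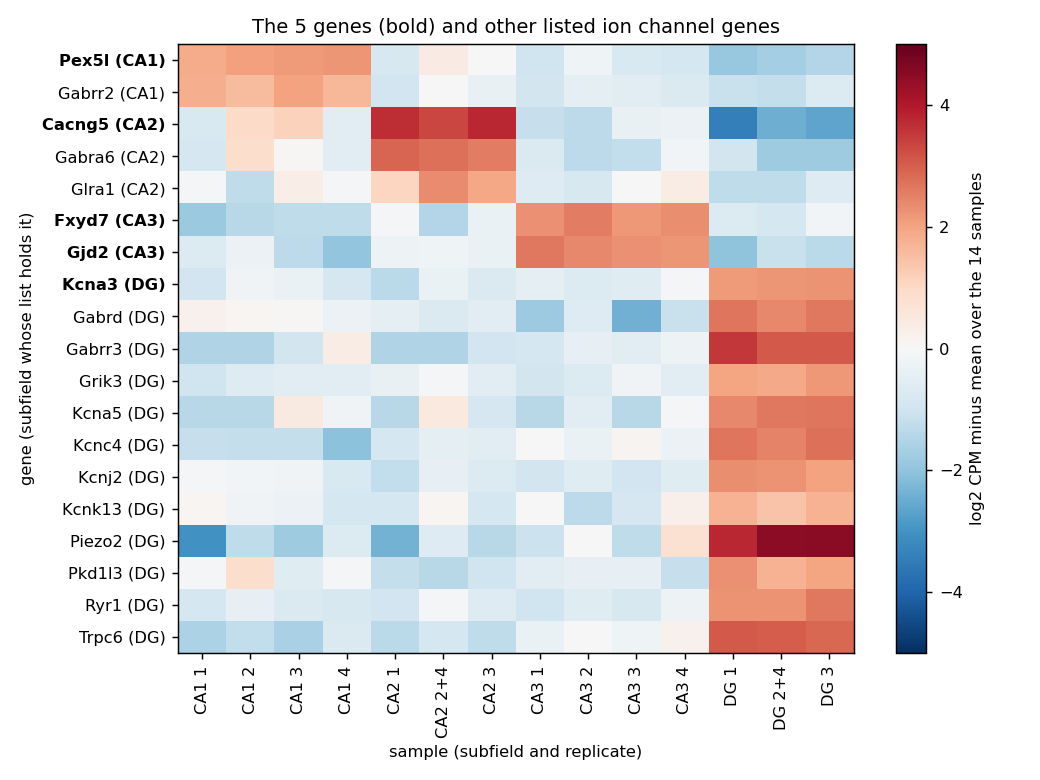
Log2 CPM of the 5 genes (bold) and of 14 other ion channel genes on the authors' lists, minus each gene's mean over the 14 samples (colour scale), with samples as columns and the subfield of the list in brackets after the gene. The channel genes were chosen by name after the data were seen, 11 of them are on the DG list, which holds 226 of the 288 listed genes, and each row is highest in its own subfield because the lists were chosen that way.

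Beside Kcna3, 11 of the 14 other ion channel genes on the authors' lists belong to DG, 2 to CA2 and 1 to CA1. That is 78.6% for DG, beside 78.5% (226 of 288) of all listed genes, so the share of channel genes on the DG list is that of the lists as a whole. The list of these channels was drawn up by name after the data were seen, and their levels are a description, since the same libraries chose them. The DG group holds the potassium channel genes Kcna5, Kcnc4, Kcnj2 and Kcnk13. In Kcnc4 the DG mean was 61.9 ± 6.2 CPM (SD, n = 3) and the means elsewhere were between 3.63 and 8.99 CPM. Gabra6 and Glra1 stand with Cacng5 on the CA2 list, and Gabrr2 with Pex5l on the CA1 list. The CA3 list of Fxyd7 and Gjd2 has 12 other genes, and 0 of them are among these channels. The CA1, CA2 and CA3 lists hold 11.8%, 4.86% and 4.86% of all listed genes, and with 14 channels their counts cannot be told from these shares.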

How the data were processed

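RNA from laser-captured CA1, CA2, CA3 and DG of 4 rats was sequenced as stranded total RNA. The authors aligned reads with STAR to Rnor6 (Ensembl), and deposited raw read counts per gene. The counting program and strand setting are not given in the sources used here. The authors' tables of their own comparisons, made with DESeq2 (mean count, log2 fold change, its error, test statistic and p-values), were not used. All columns of the count table were matched to a sample by name.

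Repeated libraries (chi-square per degree of freedom under 1.5, over genes with at least 10 counts) were summed. Genes with more than 10 summed counts were fitted with edgeR 4.0.16 in R 4.3.3 (limma 3.58.1): TMM, 1 coefficient per subfield, quasi-likelihood F-tests, Benjamini-Hochberg adjustment over all 17174 genes and a threshold of 0.05. The common dispersion was 0.01888. CPM are given with SD over samples. Similar genes were ranked with a prior count of 2, and the 5 nearest named genes are given for each gene. The labels do not say that replicates came from separate rats, so p-values measure the spread between these samples. Totals differ 3.71-fold, and low counts are less precise in small libraries.

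Over the 16 libraries, with repeated ones counted separately, same-numbered libraries deviated with a correlation of −0.132 to 0.68 (median 0.262, 19 of 24 pairs over 0.1). The median was −0.099 for other numbers. Pairs of replicate 1 had the highest values, from 0.613 to 0.68. The numbers were not taken as pairs. The alternatives were DESeq2 1.42.0, its size factors, other filters, unsummed libraries, the replicate block, fits to the compared subfields only, thinning and leaving out each sample.

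The genes, lists and tests were chosen with earlier results of these data known. Identifiers were paired with symbols for the 288 genes of the authors' marker lists, which left 1 of 82 fixed family genes and 7 of 59 fixed cell markers to analyse. Genes were named as the 5 genes, family genes above 1 CPM, and the 5 most similar named genes of each. Scripts were tested on simulated data. Plots used Python 3.11.15, numpy 2.4.6 and matplotlib 3.10.9.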

Additional observations from a re-analysis of the deposited data

How the results depend on the processing

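Each contrast of the 5 genes was recomputed under 24 alternatives. Of the 360 values for tested contrasts, 331 kept direction and side of the threshold, 10 became called, 8 lost the call and 11 changed sign, all of the last in Fxyd7 CA2vsDG and Kcna3 CA1vsCA3, neither of which was called. Of the 360 described values, 359 moved by less than the larger SD of log2 CPM of the subfields compared. Leaving 1 sample out can hardly move a group mean that far, so this count is no measure of stability. Pex5l CA1vsCA2 counted as kept at 1.87 without CA2 replicate 1, below the authors' limit of 2. Leaving out each sample in turn, 7 to 9 of the 15 tested contrasts were called.

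Pex5l CA2vsCA3 became called with DESeq2 (0.63, DESeq2 adjusted p = 0.0428), with no filter on low counts (0.63), with all 16 libraries separate (0.73) and after thinning to the lowest total (0.71), and was 0.34 without CA2 replicate 2+4 and 0.54 to 0.88 without each other sample. Its adjusted p was between 0.000268 and 0.502 over these alternatives by edgeR and DESeq2. Thinning to 3216512 reads ended the calls of Cacng5 CA1vsCA3 (1.02) and Fxyd7 CA1vsDG (−0.75), moved Cacng5 CA2vsDG to 7.39, CA3vsDG from 2.30 to 3.12 and CA1vsDG from 3.66 to 4.14, and turned Fxyd7 CA2vsDG to 0.16 and Kcna3 CA1vsCA3 to 0.06; fewer reads were left in these fits. Leaving 1 sample out gave 1.04 to 1.67 for Cacng5 CA1vsCA3, −1.25 (without CA2 replicate 2+4) and otherwise −1.02 to −0.65 for Fxyd7 CA1vsCA2, −1.16 (without DG replicate 2+4) and otherwise −1.05 to −0.69 for Fxyd7 CA1vsDG, 0.32 (without CA2 replicate 2+4) and otherwise −0.29 to 0.24 for Fxyd7 CA2vsDG, −0.90 to −0.42 for Gjd2 CA1vsCA2 (called without CA1 replicate 2, edgeR adjusted p = 0.0458) and −0.19 to 0.13 for Kcna3 CA1vsCA3. The cause was not tested.

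With the replicate number as a block, Pex5l CA2vsCA3 was called at 0.71 (16 libraries) and at 0.61 and 0.69 (repeated libraries summed under the lower or higher number), and Kcna3 CA1vsCA3 was 0.01 in all 3 block fits. The block changed no other call of the 5 genes. Genes called rose in all 6 comparisons in each of the 3 block fits: from 2458 to 3850, 3290 and 3545 in CA1vsCA2, from 1313 to 2615, 2028 and 2219 in CA2vsCA3, and from 4253 to between 5371 and 5778 in CA1vsCA3; the dispersion of the first block fit was 0.008864.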
